A study of Homo sapiens with 15 samples.

Results

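The p53 target genes MDM2, FAS, GDF15, AEN, CCNG1, BBC3, BAX, SESN1, ZMAT3 and TP53I3 were followed across 5 lines of MelJuSo, a human melanoma cell line, in 15 RNA-seq libraries. The 10 genes form a list of known p53 targets that was chosen with earlier results of these data known. They were found by symbol in GENCODE v29 and are 10 of the 58721 annotated genes in the tables. All 10 were expressed highly enough to be tested, among 14961 tested genes. The 5 lines carry parts of a transcriptional activator built on dCas12a, a Cas12a that binds DNA at a guide RNA's target without cutting it, and on a nanobody that binds the ALFA peptide tag. A pair of lines held 5xALFA-dCas12a-VP64 with nanobody-VP64, either without guides or with the cassette of 3 guides against CD4, and are called here VP64 and VP64 with guides. A second pair held the same tagged dCas12a-VP64 with nanobody-p65, again without guides or with the cassette, and are called p65 and p65 with guides. VP64 is a viral activation domain and p65 that of the NF-kB subunit RELA. The fifth line held 5xALFA-dCas12a and the nanobody, with neither activation domain and no guides. It differs from the VP64 and p65 lines in both vectors, so the part of each vector cannot be told apart, and each combination of constructs is 1 line with 3 libraries, A, B and C.

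The p53 protein is a transcription factor that is held at low levels by the ubiquitin ligase MDM2, itself the product of a p53 target gene. Stress signals such as DNA damage stabilise p53, which then binds DNA as a tetramer at pairs of half-sites and raises genes of cell cycle arrest, cell death, DNA repair and metabolism. Several of its targets, GDF15 and BBC3 among them, are also raised by other stress pathways, such as that of the transcription factors ATF4 and CHOP.

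The libraries held 15643706 to 23072513 expected counts, and 19659 to 20632 genes had a count. CD4 had a mean of 1895 CPM (counts per 1000000, scaled by TMM) with guides with VP64 and 2063 CPM with p65, against 8.83 and 10.6 CPM without guides and 3.20 CPM without an activation domain. The 10 melanocyte and melanoma markers summed to 298 to 621 CPM and included SOX10 in every line. SOX10 made up most of that sum in the VP64 and p65 lines, with and without guides, and 9 of the 10 markers were tested. The 5 T cell markers summed to at most 0.0632 CPM and the 3 keratinocyte markers to at most 0.465 CPM. The 2 epithelial markers summed to 2.41 to 4.73 CPM in all lines. The labels do not say whether A, B and C were separate cultures, and p-values cover no more than the spread from library to library, which may be technical.

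The promoter windows of RefSeq, 250 bases before to 50 bases after each annotated start (GRCh38.p14), were found for all 10 genes, 19 windows in all. They are shown because the genes were chosen as p53 targets, and the p53 half-site consensus, a palindromic motif of 10 bases read here on both strands, is the sequence p53 recognises. An exact match was present in the windows of SESN1, FAS and AEN, 3 of 10 genes, against 8.06% of 27305 genes with a window. Genes differ in their number of windows, and by window the match was in 3 of 19, against 6.63% of 35116. A pair of half-sites with at most 1 mismatch in each and at most 13 bases between them was present in 1 of the 10 genes, MDM2, against 2.28% of all genes. By window the pair was in 2 of 19, against 1.84% of all windows. No other motif was searched. Capitals mark the matched bases, and each sequence is written 5′ to 3′ on the gene's strand.
MDM2, chr12:68808883-68808982, plus strand: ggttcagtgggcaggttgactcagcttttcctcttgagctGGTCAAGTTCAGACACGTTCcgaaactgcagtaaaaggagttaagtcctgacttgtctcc
FAS, chr10:88991299-88991328, plus strand: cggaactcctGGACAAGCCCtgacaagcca
SESN1, chr6:109009018-109009047, minus strand: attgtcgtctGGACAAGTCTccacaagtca
AEN, chr15:88621296-88621325, plus strand: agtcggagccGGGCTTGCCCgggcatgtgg
The MDM2 pair has no base between its half-sites and 2 mismatches in all, lies from -94 to -75 of the start at 68809017 and falls within an intron of the gene. The FAS match begins at -122 of its start and lies in exons of FAS and, on the other strand, in an untranslated exon of ACTA2. The SESN1 match begins at -49 of a start inside the gene and lies in no annotated exon, and the AEN match begins at -34 and lies in an untranslated exon. A match describes these letters only, and binding was not measured.

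Between genes, levels are compared per transcript length, as TPM. GDF15, a secreted cytokine of the TGF-beta family, was the most abundant with a mean of 1612 TPM over the 15 libraries, and ran from 892 to 2692 TPM. BAX followed at 338 TPM, CCNG1 at 126, AEN at 80.6, TP53I3 at 35.3, MDM2 at 31.7, FAS at 19.0, ZMAT3 at 11.7, SESN1 at 11.03 and BBC3 at 8.41 TPM. BBC3 rested on 90 to 239 counts per library, the fewest of the 10, and GDF15 on 11919 to 35639. All values by line below are CPM.

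Lines with an activation domain and no guides were compared first with the line without one, which shows how the p53 targets stand when the activator is present but has no guide. Most targets were higher with either activation domain: FAS and ZMAT3 by more than a doubling, and MDM2, SESN1, TP53I3, AEN and BAX by less, while GDF15 and BBC3 were lower. With VP64, 7 of the 10 rose and 2 fell (edgeR quasi-likelihood test, adjusted p under 0.05), and with p65, 8 rose and 2 fell. In the same comparisons 47.6% of all tested genes were called with VP64, 23.6% higher and 24.0% lower, and 49.7% with p65, 24.7% higher and 24.9% lower. The median log2 fold change of the 10 genes was 0.39 with VP64 and 0.38 with p65, against -0.01 for all tested genes in each. The list was chosen with earlier results of these data known, so these counts and medians describe it and are no test of p53 targets at large. Both comparisons use the same 3 libraries without an activation domain, so they are not independent of each other. Low levels of markers of other cell types moved with these comparisons too: the 3 leukocyte markers summed to 4.22 to 6.97 CPM without an activation domain, 1.74 to 3.16 with VP64 and 1.88 to 3.08 with p65, and the 3 endothelial markers to 5.44 to 7.87, 2.15 to 4.29 and 1.82 to 3.65 CPM. No marker of either list was at 0 in all 15 libraries, and their part in the results was not tested. In bulk RNA, a change in the share of cells with a transcript and a change in transcript per cell cannot be told apart.

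**Figure D1:**
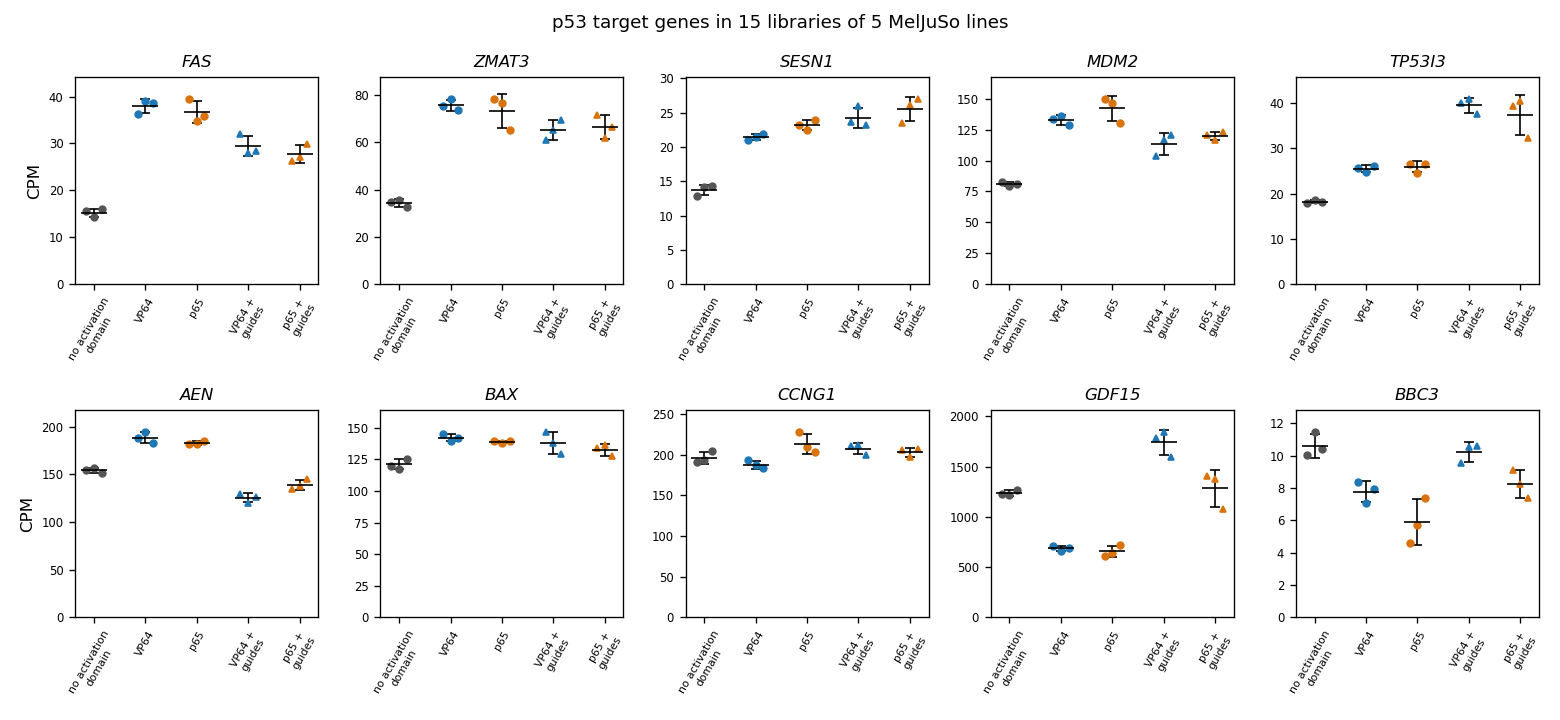
Level of each p53 target gene in CPM (y axes from 0) in the 5 lines, with circles for libraries without guides, triangles for libraries with guides, and bars for mean ± SD of 3 libraries. For FAS, ZMAT3, SESN1, MDM2, TP53I3 and BAX, all 12 libraries with an activation domain lie above all 3 without one, and GDF15 is lowest in the VP64 and p65 lines without guides.

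FAS encodes the death receptor that binds FAS ligand. It stood at 15.6, 14.3 and 15.9 CPM without an activation domain, at 36.3, 39.1 and 38.6 with VP64 and at 39.4, 34.7 and 35.9 with p65 (libraries A, B and C). The 3 libraries without an activation domain were the lowest of all 15. The log2 fold change was 1.32 (SE 0.074, adjusted p = 5.5e-12) with VP64 and 1.26 (SE 0.074, adjusted p = 8.0e-12) with p65, both by edgeR. FAS overlaps ACTA2, on the opposite strand, only where both genes begin, from base 88990582 to 88991339. ACTA2 as a whole had 510 to 1475 counts per library. No source used here gives the strandedness, so reads of the pair cannot be told apart where the genes overlap and the FAS values are uncertain.

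ZMAT3 encodes a zinc-finger protein that binds RNA. Its level was 34.8, 35.8 and 32.5 CPM without an activation domain, 75.4, 78.2 and 73.7 with VP64 and 78.2, 76.6 and 65.2 with p65. No library with an activation domain reached down to those without one. On the log2 scale it rose by 1.14 (SE 0.070, adjusted p = 1.9e-11) with VP64 and by 1.09 (SE 0.070, adjusted p = 3.1e-11) with p65.

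MDM2, the ubiquitin ligase that limits p53, stood at 82.7, 79.5 and 80.8 CPM without an activation domain. It stood at 133, 136 and 129 CPM with VP64 and at 150, 146 and 131 CPM with p65. The 2 lines with an activation domain overlapped each other and lay clear of the line without one. MDM2 rose by 0.71 (SE 0.054, adjusted p = 6.0e-10) with VP64 and 0.81 (SE 0.054, adjusted p = 6.4e-11) with p65, in log2 units. Per length MDM2 rose too, from 19.8 ± 1.66 TPM to 35.8 ± 1.36 with VP64 and 37.3 ± 4.01 with p65 (SD, n = 3).

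SESN1, a sestrin that restrains the growth regulator mTORC1, had 12.9, 14.1 and 14.3 CPM without an activation domain. With VP64 it had 20.9, 21.4 and 21.9 CPM and with p65 23.2, 22.5 and 23.9 CPM. TP53I3 encodes a quinone oxidoreductase and had 17.9, 18.6 and 18.3 CPM without an activation domain, 25.7, 24.8 and 26.2 with VP64 and 26.6, 24.5 and 26.7 with p65. For both genes the line without an activation domain was lowest with no overlap. The log2 fold changes of SESN1 were 0.64 (SE 0.074) with VP64 and 0.75 (SE 0.073) with p65, and those of TP53I3 were 0.48 (SE 0.077) and 0.51 (SE 0.077), each with an adjusted p of 2.2e-05 or less.

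The remaining death genes on the list moved less or in the other direction. AEN, an apoptosis-enhancing nuclease, was at 155, 156 and 151 CPM without an activation domain, 189, 194 and 183 with VP64 and 182, 182 and 185 with p65, which gave log2 fold changes of 0.29 (SE 0.039) and 0.25 (SE 0.039). BAX, the pore-forming protein of the outer mitochondrial membrane, was at 120, 118 and 126 CPM without an activation domain, 145, 140 and 142 with VP64 and 140, 138 and 139 with p65, or 0.23 (SE 0.044) and 0.20 (SE 0.044). For both genes the line without an activation domain lay below the other 2 with no overlap. BBC3 encodes PUMA, a BH3-only protein that triggers death through BAX. It was at 10.0, 11.4 and 10.4 CPM without an activation domain, 8.34, 7.06 and 7.93 with VP64 and 4.58, 5.72 and 7.39 with p65, all 6 below the lowest library of that line. BBC3 fell by 0.45 (SE 0.133, adjusted p = 0.0081) and by 0.84 (SE 0.137, adjusted p = 2.5e-05) on the log2 scale.

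CCNG1, a cyclin that brings phosphatase PP2A to MDM2, was nearly flat over the 5 lines, from 188 to 214 CPM by line mean. Against the line without an activation domain it stood at -0.06 (SE 0.044, adjusted p = 0.26) with VP64. With p65 it passed at 0.12 (SE 0.044, adjusted p = 0.022), yet the library ranges overlapped. That call was lost without p65 library A (adjusted p = 0.14), without library A or B of the line without an activation domain (0.076 and 0.060) and with a correction for effective transcript length (0.053).

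GDF15 went against most of the list. Without an activation domain it stood at 1225, 1217 and 1266 CPM, with VP64 at 708, 661 and 689 and with p65 at 607, 642 and 716. All 6 libraries with an activation domain lay far below the other 3. The log2 fold change was -0.85 (SE 0.074, adjusted p = 4.6e-09) with VP64 and -0.92 (SE 0.074, adjusted p = 1.3e-09) with p65. The stress response genes driven by ATF4 and CHOP fell in the same comparisons, 7 of 8 with VP64 and 8 of 8 with p65, where 24.0% and 24.9% of all tested genes fell. The median of this stress list was -1.17 in both. Of its genes, DDIT3, which encodes CHOP, went from 54.8 ± 6.43 CPM to 11.6 ± 0.454 with VP64 and 11.4 ± 0.598 with p65 (SD, n = 3). ATF4 itself went from 209 ± 7.03 to 120 ± 1.72 and 114 ± 1.55 CPM. The part of this response in the GDF15 and BBC3 values was not tested.

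**Figure D2:**
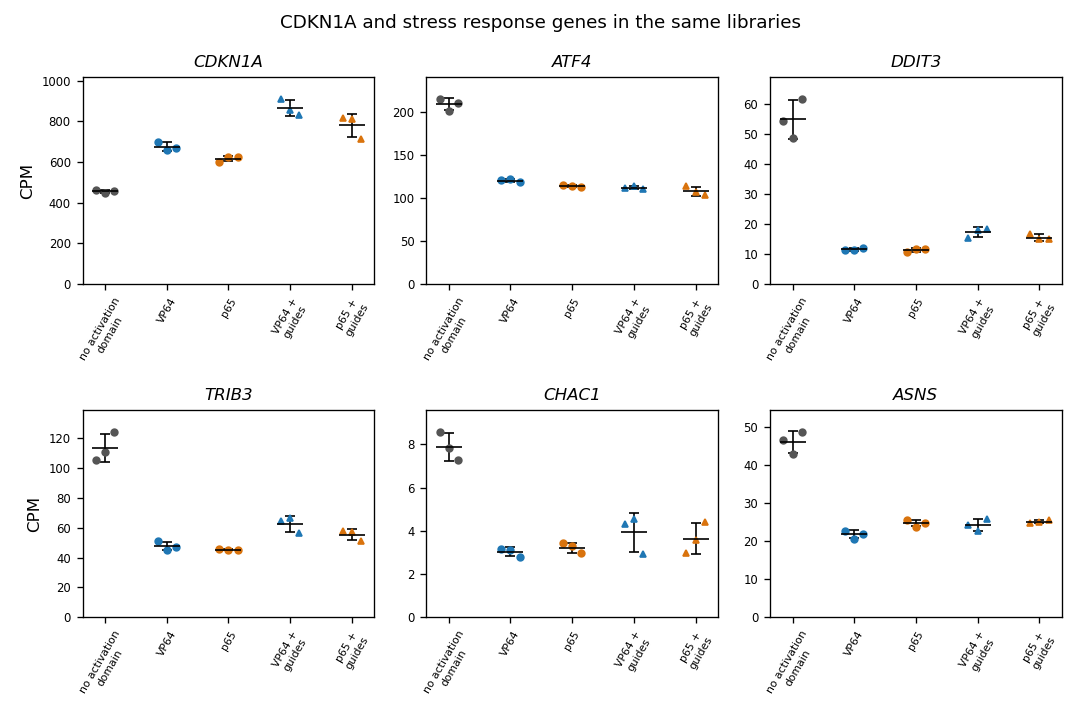
Levels in CPM (y axes from 0) of CDKN1A and 5 stress response genes in the same 15 libraries, with circles for no guides, triangles for guides, and bars for mean ± SD of 3 libraries. ATF4, DDIT3, TRIB3, CHAC1 and ASNS are highest in the line without an activation domain, where CDKN1A is lowest at 457 CPM by mean.

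CDKN1A encodes p21, an inhibitor of cyclin-dependent kinases. Beside the 10 genes it rose from 457 ± 7.07 CPM to 676 ± 21.3 with VP64 and 616 ± 12.04 with p65 (SD, n = 3), log2 fold changes of 0.56 (SE 0.045) and 0.43 (SE 0.045). Protein levels were not measured.

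The wider p53 pathway was followed as 49 other genes, of which 44 were tested. With VP64 23 of the 44 rose and 5 fell, at a median of 0.17 on the log2 scale, and with p65 22 rose and 3 fell, with a median of 0.20. Among all tested genes 47.6% and 49.7% were called, 23.6% and 24.7% higher and 24.0% and 24.9% lower. The rises with VP64 came to 4 of 9 tested apoptosis genes, 4 of 7 arrest genes, 2 of 4 repair genes, 2 of 4 metabolism genes, 2 of 9 regulators and 9 of 11 other targets. Those with the smallest p were TNFRSF10B (0.71, SE 0.037), a death receptor for TRAIL, CYFIP2 (0.66, SE 0.038), a subunit of the actin-regulating WAVE complex, CDKN1A and RRM2B (0.57, SE 0.047), a ribonucleotide reductase subunit. With p65 they were TNFRSF10B (0.66, SE 0.037), CYFIP2 (0.63, SE 0.038), RRM2B (0.67, SE 0.047) and DRAM1 (0.72, SE 0.055), a lysosomal membrane protein. Among the exceptions, DDB2, which recognises ultraviolet damage in DNA, fell by 0.54 with VP64 and by 0.60 with p65, and PLK2, a polo-like kinase, fell by 0.40 and by 0.55 on the log2 scale.

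**Figure D3:**
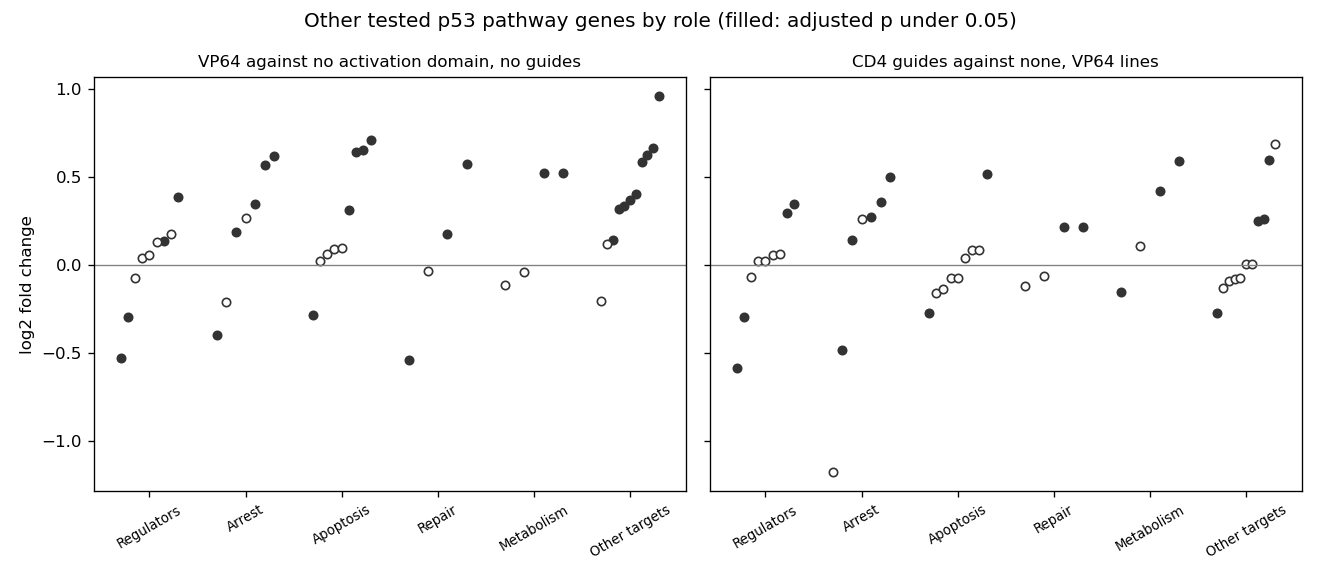
Log2 fold change (y axis) of the 44 other tested p53 pathway genes, 1 point per gene, grouped by role, for VP64 against no activation domain and for guides against none in the VP64 lines; filled points have an adjusted p under 0.05. In the left panel 23 genes are called higher and 5 lower, and in the right panel 14 higher and 6 lower.

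Guides against CD4 were compared with no guides within each nanobody, which shows how the p53 targets stood with and without the cassette. The lines with and without it are separate lines, and no line held guides against another target. An effect of the guides therefore cannot be told apart from a difference between lines or from carrying the cassette. The 10 genes split: GDF15 and TP53I3 rose and FAS and AEN fell with both nanobodies. In the VP64 lines 5 genes rose and 4 fell, where 40.6% of all tested genes were called, 19.3% higher and 21.3% lower. In the p65 lines 3 rose and 3 fell, where 38.9% of all genes were called, 18.7% higher and 20.2% lower. The median log2 fold change of the 10 genes was 0.05 in the VP64 lines and -0.07 in the p65 lines. Each comparison shares its libraries without guides with a comparison above, so those comparisons are not independent.

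**Figure D4:**
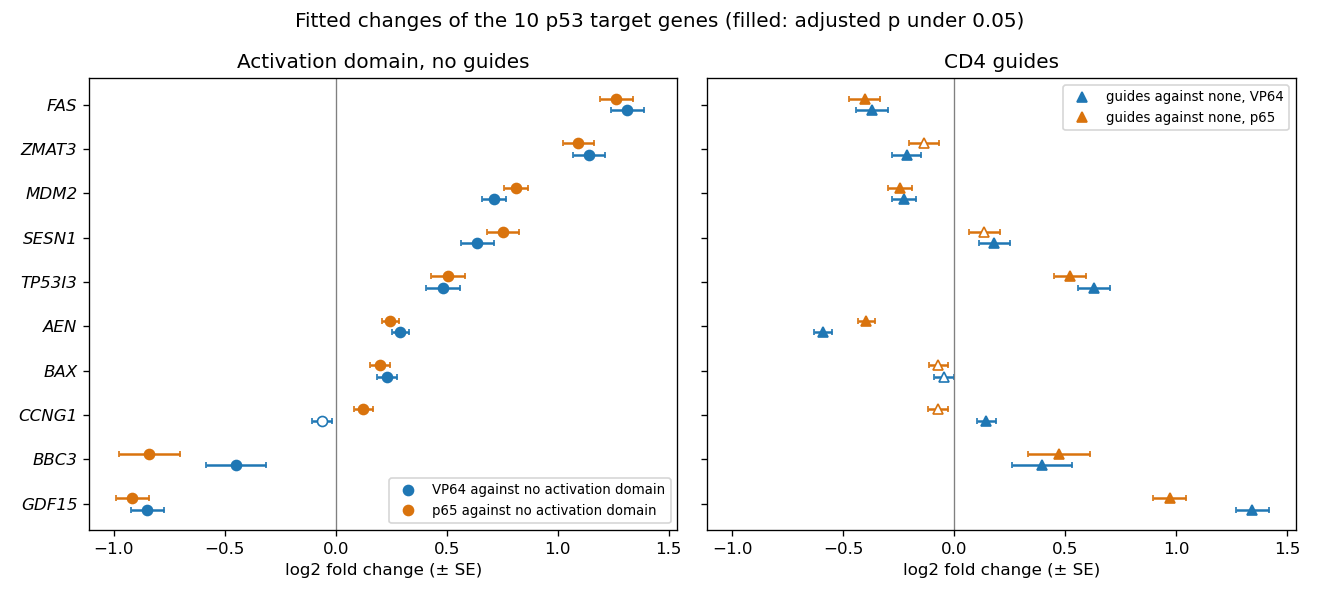
Log2 fold change ± SE (x axis) of the 10 genes with an activation domain against none (left, circles) and with guides against none (right, triangles), VP64 in blue and p65 in orange; filled symbols have an adjusted p under 0.05. FAS is highest and GDF15 lowest in the left panel, and GDF15 is highest in the right panel at 1.34 and 0.97.

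GDF15 had the largest difference between lines with and without guides of the 10. With guides it reached 1785, 1840 and 1598 CPM in the VP64 cells and 1403, 1377 and 1072 CPM in the p65 line, against the 607 to 716 CPM of the 6 libraries without guides. Every library with guides lay above those, and the VP64 line with guides also lay above the line without an activation domain, which the p65 line with guides overlapped. The log2 fold change was 1.34 (SE 0.075, adjusted p = 9.3e-12) in the VP64 lines and 0.97 (SE 0.074, adjusted p = 1.0e-09) in the p65 lines. Of the ATF4 and CHOP list, 4 of 8 genes rose and 1 fell in each. Among all tested genes 19.3% rose and 21.3% fell in the VP64 lines, and 18.7% rose and 20.2% fell in the p65 lines. DDIT3 reached 17.2 ± 1.67 and 15.5 ± 1.02 CPM (SD, n = 3), well under its level without an activation domain. The part of these stress genes in the GDF15 values was not tested.

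TP53I3 had 40.1, 40.8 and 37.7 CPM with guides in the VP64 cells and 39.4, 40.5 and 32.4 in the p65 line. All 6 lay above every library without guides. The rises were 0.63 (SE 0.073, adjusted p = 4.0e-07) and 0.52 (SE 0.072, adjusted p = 4.6e-06) on the log2 scale. TP53I3 overlaps FAM228B on the opposite strand, which had only 9 to 38 counts per library.

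AEN fell to 129, 120 and 126 CPM with guides in the VP64 cells and to 135, 138 and 145 in the p65 line. All 6 lay below the line without an activation domain as well as below the lines without guides. The log2 fold change was -0.59 (SE 0.040, adjusted p = 1.5e-10) and -0.40 (SE 0.039, adjusted p = 6.1e-08). FAS fell to 32.0, 28.0 and 28.3 CPM and to 26.2, 27.0 and 29.9 CPM, with log2 fold changes of -0.37 (SE 0.070, adjusted p = 0.00020) and -0.40 (SE 0.070, adjusted p = 8.0e-05). Its 6 libraries with guides lay between the line without an activation domain and the lines without guides, with no overlap on either side. The uncertainty from ACTA2 holds here too.

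MDM2 had 103, 117 and 121 CPM with guides in the VP64 cells and 121, 116 and 123 in the p65 line, again between the line without an activation domain and the lines without guides. By counts it fell by 0.22 (SE 0.054, adjusted p = 0.0018) and by 0.24 (SE 0.053, adjusted p = 0.00090) on the log2 scale. With an offset for effective transcript length neither call held: the values were -0.21 (adjusted p = 0.15) and -0.08 (adjusted p = 0.59). The abundance-weighted transcript length of MDM2 was 5069 ± 266 bases in the p65 line and 4614 ± 474 with guides (SD, n = 3), a difference within the spread of the libraries. The per-length level was 37.3 ± 4.01 TPM in the p65 line and 34.7 ± 4.24 with guides.

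**Figure D5:**
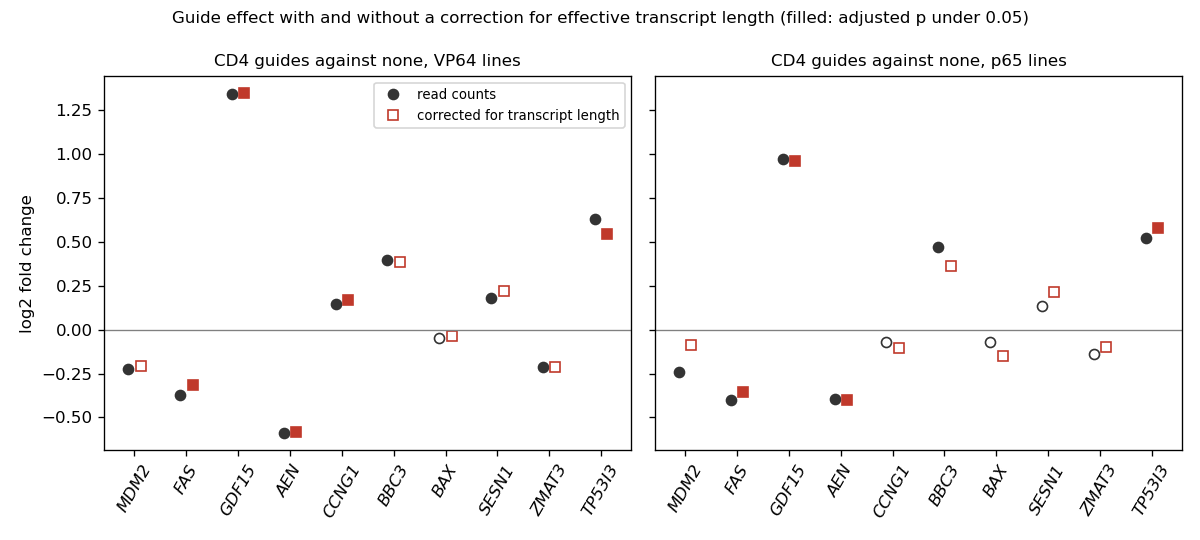
Log2 fold change (y axis) of the 10 genes with guides against none, from read counts (black circles) and with an offset for effective transcript length (red squares), in the VP64 and p65 lines; filled symbols have an adjusted p under 0.05. MDM2 and BBC3 are filled by counts and open with the offset in both panels, while GDF15, AEN, FAS and TP53I3 stay filled.

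BBC3 had 9.54, 10.5 and 10.6 CPM with guides in the VP64 cells and 9.13, 8.23 and 7.40 in the p65 line, log2 fold changes of 0.40 (SE 0.136, adjusted p = 0.024) and 0.47 (SE 0.142, adjusted p = 0.011). The adjusted p was 0.069 and 0.097 with the length offset. In the VP64 lines it was 0.074 without guide library B, 0.055 without guide library C and 0.087 without library B of the line without guides, and in the p65 lines 0.062 without guide library A and 0.077 without library A of the line without guides. BAX did not pass in either, with -0.04 (SE 0.044, adjusted p = 0.46) and -0.07 (SE 0.044, adjusted p = 0.22).

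SESN1, ZMAT3 and CCNG1 passed in the VP64 lines, and each lost its call under some alternatives. SESN1 had 23.6, 25.9 and 23.2 CPM with guides, or 0.18 (SE 0.071, adjusted p = 0.045) on the log2 scale, which was 0.093 with DESeq2, 0.11 with no low-count filter, 0.053 with only the libraries compared and 0.0503 with the length offset. Its adjusted p was 0.23 without guide library B, and 0.10, 0.076 and 0.052 without library A, B or C of the VP64 line. ZMAT3 had 61.1, 65.3 and 69.5 CPM and stood at -0.21 (SE 0.067, adjusted p = 0.013), with an adjusted p of 0.12 with the length offset, 0.093 without guide library A and 0.072 without library B of the VP64 line. CCNG1 had 210, 212 and 200 CPM and stood at 0.15 (SE 0.044, adjusted p = 0.011), which became 0.056 without guide library B. In the p65 lines SESN1 (0.14, SE 0.069), ZMAT3 (-0.14, SE 0.066) and CCNG1 (-0.07, SE 0.044) did not pass, though ZMAT3 passed without guide library A (adjusted p = 0.045) or without library C of the p65 line (0.015).

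CDKN1A rose with guides in both pairs of lines. It reached 865 ± 38.8 and 780 ± 56.5 CPM (SD, n = 3), or 0.36 (SE 0.045) and 0.34 (SE 0.045). Of the 44 other pathway genes, CDKN1A included, 14 rose and 6 fell in the VP64 lines, and 16 rose and 6 fell in the p65 lines, with medians of 0.03 in both. Of all tested genes 40.6% and 38.9% were called, 19.3% and 18.7% higher and 21.3% and 20.2% lower. Whether the pathway differs from all tested genes was not tested.

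The pathway genes with the smallest p in the VP64 lines were GADD45A (-0.48, SE 0.042), a DNA damage-inducible arrest gene, NINJ1 (0.59, SE 0.058), which ruptures the membrane of dying cells, HIPK2 (-0.59, SE 0.059), a kinase of p53, and FDXR (0.42, SE 0.045), a mitochondrial reductase. In the p65 lines they were HIPK2 (-0.56, SE 0.058), TNFRSF10B (0.33, SE 0.037), NINJ1 (0.51, SE 0.057) and PPM1D (0.40, SE 0.050), a phosphatase that opposes p53. The summed melanocyte markers moved along with guides, from 342 to 365 CPM with VP64 to 532 to 621 CPM with guides, and from 298 to 325 CPM with p65 to 408 to 495 CPM with guides. SOX10 made up most of that sum, at 278 CPM with VP64 and 403 with guides, and at 245 CPM with p65 and 334 with guides by mean. Of the 9 tested markers 7 rose in the VP64 lines, and 5 rose and 1, DCT, fell (-0.68, SE 0.159, adjusted p = 0.0017) in the p65 lines. Among all tested genes 19.3% and 18.7% rose and 21.3% and 20.2% fell. The part of these markers in the results was not tested.

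The nanobodies were then compared with each other, which shows whether the p65 and VP64 lines held the p53 targets at different levels. Without guides 1 of the 10 genes passed, where 2.11% of all tested genes did. CCNG1 had 227, 210 and 203 CPM with p65 against 193, 187 and 183 with VP64, ranges that did not overlap, or 0.19 (SE 0.044, adjusted p = 0.024) on the log2 scale. That call was lost with the length offset (adjusted p = 0.11) and without VP64 library B or C (0.11 and 0.14) or p65 library A or B (0.17 and 0.059). BBC3 stood at -0.39 (SE 0.142, adjusted p = 0.19), and passed without p65 library C (-0.60, adjusted p = 0.027). Of the 44 other pathway genes none passed by edgeR with all libraries and the filter used throughout, with 6 at an unadjusted p under 0.05. A count of 1 came from DESeq2, and from edgeR with no low-count filter, with a mean of at least 1 CPM or without p65 library C.

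With guides 2 of the 10 genes passed, where 7.92% of all genes did. GDF15 was lower with p65 than with VP64, at -0.44 (SE 0.073, adjusted p = 0.00041), with no overlap of the libraries. AEN was higher with p65, at 0.15 (SE 0.040, adjusted p = 0.022), also with no overlap, but this call did not hold with only the libraries compared (adjusted p = 0.099), with the length offset (0.11), without VP64 guide library B (0.15) or without p65 guide library C (0.12). The calls among the other pathway genes were few and depended on the settings. With p65 3 were higher and 4 lower, and this count of 7 became 4 with only the libraries compared, 3 with the length offset, 2 with limma on TPM, and 4, 2 and 4 without VP64 guide library A, VP64 guide library B or p65 guide library C. Those with the smallest p were TNFRSF10B (0.20, SE 0.037), FUCA1 (-0.31, SE 0.066), a lysosomal fucosidase, TNFRSF10A (0.28, SE 0.062), the other activating TRAIL receptor, and PHLDA3 (-0.19, SE 0.050), an inhibitor of AKT. CDKN1A was lower with p65 at -0.15 (SE 0.045, adjusted p = 0.041).

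Whether the comparison of guides with none differed between the p65 and VP64 lines was tested by the difference of the 2 log2 fold changes. That value is called here the difference of guide effects. None of the 10 genes passed by edgeR, where 0.956% of all tested genes did, while 3 had an unadjusted p under 0.05 and 1 passed by DESeq2. GDF15 stood at -0.37 (SE 0.104, adjusted p = 0.096), AEN at 0.20 (SE 0.056, adjusted p = 0.11) and CCNG1 at -0.22 (SE 0.062, adjusted p = 0.11), as p65 minus VP64. GDF15 passed without VP64 guide library C (-0.43, adjusted p = 0.047), without p65 guide library A (-0.44, adjusted p = 0.041) and with no low-count filter (-0.37, adjusted p = 9.5e-09). With no low-count filter the edgeR model was refitted on 27933 genes, and the GDF15 estimate stayed at -0.37. An adjusted p is never below the unadjusted one, so the unadjusted p fell as well, from 0.0017 in the main edgeR fit. The reason was not tested. AEN passed with DESeq2 (0.20, adjusted p = 0.032). Among the other pathway genes TNFRSF10B passed, at 0.25 (SE 0.052, adjusted p = 0.018). That count of 1 became 0 with the length offset, with limma on TPM, without VP64 library B and without p65 library A, 2 with DESeq2 or without VP64 guide library A, and 3 without p65 library C.

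Set in order by line mean, the genes fell into several patterns. MDM2, FAS and ZMAT3 were lowest without an activation domain, intermediate with guides and highest in the VP64 and p65 lines without guides, though for ZMAT3 the last 4 lines overlapped as neighbours. SESN1 and TP53I3 were also lowest without an activation domain but highest with guides, and TP53I3 did not overlap between lines with and without guides. AEN was lowest with VP64 and guides at 125 CPM, followed by p65 with guides at 139, no activation domain at 154, p65 at 183 and VP64 at 189, and only the last 2 overlapped. GDF15 ran from p65 at 655 and VP64 at 686, which overlapped, to the line without an activation domain at 1236 and p65 with guides at 1284, which overlapped, and to VP64 with guides at 1741 CPM.

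The genes whose 5 line means of log2 CPM came nearest to each member, by the root mean square difference after centring over 13061 genes, were all outside the list. They were LMTK2 and TOR1AIP2 for MDM2, DSP and SERTAD1 for FAS, IER5L and SREBF1 for GDF15, and NUDCD1 and SRGAP1 for AEN. For BBC3 they were EVA1C and GPNMB, for SESN1 TMTC3, for ZMAT3 CD59 and CSRNP1, and for TP53I3 SEMA4G and H6PD. The root mean square difference of the nearest gene ran from 0.016 for MDM2 to 0.069 for GDF15. Within the list, FAS and ZMAT3 were nearest to each other at 0.10, where ZMAT3 was the tenth nearest of all genes to FAS. For the other members shown, the nearest member stood far lower among all genes, from position 509 for TP53I3 to 5544 for BBC3. The ranking compares 5 line means and is a description only. CCNG1 and BAX, whose line means spanned less than 0.5 on the log2 scale, were left out.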

How the data were processed

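RNA from 5 MelJuSo lines, 3 libraries each, was sequenced. RSEM and STAR with hg38 gave the deposited expected counts, which estimate each gene's reads, per the submitters' processing notes, and the deposited TPM values are RSEM's length-scaled abundances, per the file headers. The deposited transcript lengths and effective lengths (another unit, bases) are RSEM's abundance-weighted means per gene, per the file headers. Tool versions, annotation release, strandedness and read length: not given in the sources used here. Identifiers matched GENCODE v29 (58721 genes), and 92 spike-in entries were left out.

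Expected counts were rounded and fitted in edgeR 4.0.16 (R 4.3.3), in 1 quasi-likelihood model of the 5 lines and 15 libraries, with TMM factors of 0.983 to 1.014. The filter filterByExpr at 10 counts kept 14961 genes. Benjamini-Hochberg adjustment ran over these genes in each of 7 comparisons, with a threshold of 0.05. The fit was tested on simulated counts. CPM are scaled by TMM. Replicates of a line differed by more than sampling noise in every pair (chi-square per degree of freedom 2.42 to 9.56). Library totals of 15643706 to 23072513 counts limit the precision of BBC3 most. Mitochondrial protein genes took 1.26 to 2.47% of counts.

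Alternatives were DESeq2 1.42.0, its size factors in edgeR, 2 other filters, an effective-length offset, limma 3.58.1 on log2(TPM + 1) and log2(TPM + 0.1), a fit of the compared lines alone, a block for the replicate letter, and leaving out each library. All 10 members are named. Of the other p53 pathway genes, up to 4 per comparison with the smallest p are named, and CDKN1A always. Some genes that meet the naming rule are not reported here. DDB2 and PLK2, and the genes named from the stress response and cell cycle lists, were picked after their values were seen. The members and gene lists were chosen with earlier results of these data known. Promoter sequences are from RefSeq (GRCh38.p14).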

Additional observations from a re-analysis of the deposited data

How the results depend on the processing

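Under the alternatives none of the values of the 10 genes changed direction where it had been called. Against the line without an activation domain, 9 genes were called with VP64 under every alternative and 9 or 10 with p65. Leaving out 1 library kept 454 of 480 gene calls on their side of the threshold, and the effective-length offset kept 61 of 70. Of the 10 genes, those called with guides in the VP64 lines numbered 6 to 8 without 1 library and 8 with DESeq2, in place of 9. They numbered 5 with the effective-length offset, limma on log2(TPM + 1) and limma on log2(TPM + 0.1). In these 3 settings all genes called with guides in the p65 lines numbered 3851, 3771 and 3758, in place of 5823. Between p65 and VP64 without guides these 3 settings called 0, 0 and 0 of the 10 genes in place of 1, and 109, 99 and 98 of all genes in place of 315. No low-count filter called 545 there, and leaving out 1 library gave 0 to 2 of the 10 genes and 185 to 301 of all genes. With guides these 3 settings and only the libraries compared each called 1 of the 10 genes in place of 2, and 437, 451, 429 and 706 of all genes in place of 1185, and leaving out 1 library gave 1 to 2 and 681 to 1129. In the difference of guide effects no low-count filter and DESeq2 each called 1 of the 10 genes in place of 0, and leaving out 1 library 0 to 1. For all genes in that difference the values were 360 with no filter, 247 with DESeq2, 31, 36 and 28 with the 3 length-based settings and 91 to 176 without 1 library, in place of 143. The cause was not tested. The replicate block called 9 of the 10 genes with guides in the VP64 lines and 6 in the p65 lines and changed none of 70 gene calls. Libraries with the same letter correlated at -0.10 to 0.12 (30 pairs of deviations from the line mean), and a library correlated best with its own letter in 10 of 60 cases, so the letter was not treated as a pairing.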

Other observations

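Cell cycle genes that can be lowered through p21 were followed as a list of 10, all among the tested genes. The part of p21 in their values was not tested. Against the line without an activation domain all 10 fell with VP64 and with p65 (edgeR, adjusted p under 0.05), with median log2 fold changes of -0.36 and -0.35, where 24.0% and 24.9% of all tested genes fell. CDC20, which activates the anaphase-promoting complex, fell by 0.57 with VP64 and by 0.60 with p65, and CCNB2, a mitotic cyclin, fell by 0.61 and by 0.57. With guides 8 fell and 1 rose in the VP64 lines, and 9 fell and 1 rose in the p65 lines, where 21.3% and 20.2% of all tested genes fell. The gene that rose was CCNA2, the cyclin of S phase and early mitosis, at 0.29 (SE 0.050) and 0.30 (SE 0.050). The 2 comparisons against the line without an activation domain share its libraries, and each comparison with guides shares libraries with one of them.

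DDIT4, an inhibitor of mTORC1 that answers to ATF4, p53 and other signals, had larger changes than any of the 10 p53 targets. It fell by 1.82 (SE 0.070) with VP64 and by 2.06 (SE 0.071) with p65 on the log2 scale, and rose by 2.10 (SE 0.070) and 1.90 (SE 0.071) with guides. It was picked after its values were seen.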
